A study of Mus musculus with 32 samples.

Results

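The cytosolic ribosomal protein genes are the protein coding genes whose symbols follow the Rpl, Rps, Rplp or Rpsa naming of the cytosolic ribosome. They were chosen by symbol and biotype alone, with pseudogenes left out, and the rule used no measured value. It found 83 genes among the 56221 gene IDs of a pair of deposited count tables: 43 of the large subunit, 3 of the stalk, 31 of the small subunit and 6 paralogs. All 83 were listed for HL-1 and 81 for AML12, where Rpl10l and Rpl39l were not analysed. The series holds 32 RNA-seq libraries from 2 mouse cell lines, in 8 groups of 4. AML12 is an established hepatocyte line, and it was collected at 17 h and 25 h after a control treatment or a treatment labelled DEX, an abbreviation that the labels do not spell out. HL-1 is an established line of atrial cardiomyocyte origin, and it was collected at 16 h and 28 h in medium that came from AML12 cells. That medium was from cells synchronized with DEX in the CM groups and from cells without this synchronization in the control groups, so the HL-1 controls also had AML12 medium. No label ties the 4 libraries in a group to separate cultures, so p-values measure the spread between these libraries, which may be technical.

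Each ribosome has 1 copy of nearly every one of these proteins, so their genes are usually expressed at high and similar levels. Their mRNAs are known for a run of pyrimidines at the 5′ end, the terminal oligopyrimidine tract, through which mTORC1 and Larp1 control their translation. The genes are also among the housekeeping loads of a growing cell, with MYC as a known activator. In liver and heart muscle, ribosome content is known to follow cell growth and feeding.

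The sequences around the annotated starts show which genes have such a tract at that position. They are set here for the genes on which the results turn. The RefSeq promoter windows of GRCm38.p6 held 63 of the 83 genes, each from 250 bases before to 50 bases after an annotated start. Below, 10 bases before the start are followed by 20 bases from it. Capitals mark a tract that opens at the start with C and goes on for at least 4 further C or T, or the letters CCGGAAGT, a known motif of ETS factors.
Rps10 (chr17:27635225-27635254, minus strand): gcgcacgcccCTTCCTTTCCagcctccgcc
Rpl35 (chr2:39005112-39005141, minus strand): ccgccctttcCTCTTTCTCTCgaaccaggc
Rps27 (chr3:90213629-90213658, minus strand): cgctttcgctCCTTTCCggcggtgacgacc
Rpl14 (chr9:120571507-120571536, plus strand): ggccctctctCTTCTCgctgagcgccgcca
Rps21 (chr2:180257369-180257398, plus strand): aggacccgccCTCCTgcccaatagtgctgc
Rpl26 (chr11:68901556-68901585, plus strand): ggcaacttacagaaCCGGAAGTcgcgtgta
Rps27l (chr9:66946076-66946105, plus strand): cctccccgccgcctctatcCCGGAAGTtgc
Rpl7l1 (chr17:46782637-46782666, minus strand): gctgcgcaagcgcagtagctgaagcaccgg
Rpl22 (chr4:152325716-152325745, plus strand): cctgggaaaagcaatagctggccgatcgtt
Rpl10 (chrX:74270806-74270835, plus strand): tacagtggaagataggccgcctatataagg
The first 5 open with a tract, and the last 5 do not. The paralogs Rpl7l1 and Rps27l have no tract at the start, whereas Rps27, the partner of Rps27l, has one of 7 bases. Rpl22, also a partner, has none, and Rpl7, the partner of Rpl7l1, has no window. Of the 63 genes with a window, 12 have a tract at the start.

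Over all windows of these genes, 17.3% (13 of 75) opened with such a tract, against 2.51% (823 of 32851) of all promoter windows. With a tract allowed anywhere from 5 bases before to 10 bases after the start, it was 41.3% against 18.3%. Rps27l has a tract by this wider measure. CCGGAAGT stood on either strand in 16.0% of their windows and in 3.89% of all windows. The shorter CCGGAAG, which every CCGGAAGT contains, was in 36.0% against 8.86%. GGGCGG, the GC box, was in 60.0% against 35.7%, and TATAAA was in 9.33% against 13.6%. The E-box CACGTG, which MYC can bind, was in 10.7% against 7.15%. A match describes letters and not a bound site, and annotated starts can lie some way from the base at which an mRNA begins. The RefSeq starts of Rps10 and Rpl35, for example, lay 301 and 493 bases from those of their principal transcripts in GENCODE M21.

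Libraries held 15032450 to 19304043 counts each. In AML12 DEX at 17 h, replicate 2 was unlike its group. Its counts differed from each of the other 3 by a chi-square of 13.1 to 17.3 per degree of freedom over genes, against 2.35 to 3.87 among those 3. In HL-1 control at 16 h, replicate 3 differed from the other 3 by 7.55 to 15.6, against 2.64 to 5.32 among those. For the time comparisons that hold either library, and for DEX at 17 h, the number of ribosomal protein genes called is given with and without it. Counts by subunit, by gene list or by overlap are given without it only where stated. In AML12, 4 of 8 hepatocyte markers reached 10 CPM (counts scaled to a common library size), with Hnf4a at 205 and Alb at 1.43, and so did all 3 bile duct markers with a row. In HL-1, 8 of 11 cardiomyocyte markers were under 1 CPM, Myh6, Nppa and Actc1 among them, while 5 of 6 fibroblast markers reached 10 CPM. Mybpc3 and Pln were at 0 in every HL-1 library.

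Ribosomal protein mRNAs took about the same share of the counts in both lines, and the share changed most with time in HL-1. In AML12 it was 4.07% ± 0.0966 (SD, n = 4) in the 17 h controls and 4.13% ± 0.0769 in the 25 h controls. The 17 h DEX libraries had 4.02%, 3.44%, 4.17% and 4.13%, and only replicate 2 lay below all AML12 controls. In that library 2.65% of counts were of mitochondrial genes, against 1.64% to 1.85% in the other 3. At 25 h, DEX libraries had 4.17% to 4.39%. In HL-1 at 16 h, shares were 4.12% to 4.45% in control and 4.31% to 4.46% in CM. At 28 h they were 3.68% to 3.89% and 3.67% to 3.87%, so every 28 h library lay below every 16 h library.

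**Figure D1:**
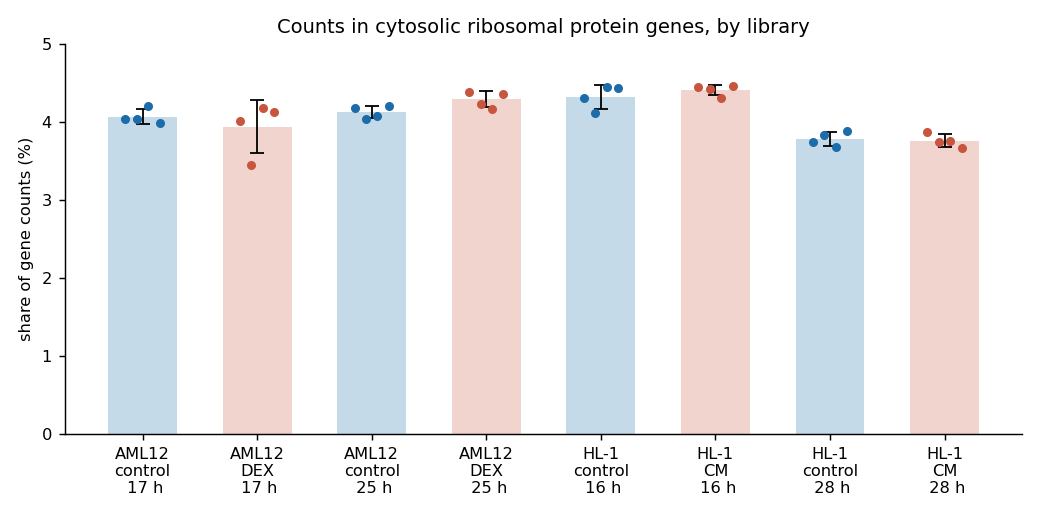
Share of each library's gene counts in the cytosolic ribosomal protein genes, in percent. Points are libraries, bars are means of 4 and whiskers are SD. The HL-1 libraries of 28 h sit between 3.67% and 3.89%, under all HL-1 libraries of 16 h, and 1 AML12 DEX library of 17 h is at 3.44%.

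Per kilobase of transcript, Rplp0 and Rpl41 were among the 4 highest in both lines. In AML12 the highest levels were those of Rplp1 at 2268 ± 251 CPM per kb (SD, n = 16 libraries), Rpl41 at 2182 ± 149 and Rplp0 at 2072 ± 77.6, which do not differ beyond their spread. Rplp0 and Rplp1 belong to the stalk that recruits elongation factors, and Rpl41 is the smallest ribosomal protein. Rplp2, the other stalk gene, was lower, at 958 ± 93.7 in AML12 and 692 ± 71.7 in HL-1. In HL-1 the order opened with Rps12 at 2175 ± 222 CPM per kb. Rplp0 at 1860 ± 107, Rps15 at 1822 ± 169 and Rpl41 at 1743 ± 123 followed and overlapped in their spread. These SDs run over all 4 groups of a line, and lengths are those of the shortest principal transcript.

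Between the lines, 64 of the 79 genes with at least 1 CPM in either were within 2-fold in mean CPM, and 7 differed by more than 5-fold. Rpl21 was at 3.57 CPM in AML12 and 523.5 in HL-1, and Rpl34 was at 10.5 and 275. Rpl35a was at 19.5 and 334 CPM, Rps18 at 38.1 and 559, and Rpl29 at 13.0 and 108.5. Rps10 was the other way round, at 387 CPM in AML12 and 4.53 in HL-1. These gaps are not tested as differences between lines, because the tables list different gene sets (27843 and 55414 rows) and were normalised apart.

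Pseudogene rows take part of the reads of such families. In AML12 the row of Rps2-ps13 held 413909 counts, against 12516 in Rps2 itself, and Rpl34-ps1 held 64227 against 2753 in Rpl34. In HL-1 the row of Rps2-ps10 held 246306 counts and Rps2 104819. Named pseudogenes together held 9.63% of the counts of these families in AML12 and 4.13% in HL-1, and more counts than the gene itself for 3 genes in AML12 and 2 in HL-1. Only rows with the gene's symbol followed by -ps were counted here, so copies under other names are left out. In AML12 the counted rows held 29.0% of the Rps18 family, 28.3% of the Rpl35a family and 1.30% of the Rpl29 family. How reads of near-identical copies were assigned is not given in the sources used here. Levels of Rps2, Rps10, Rpl21, Rpl34, Rps18, Rpl35a and Rpl29, and their gaps between the lines, are therefore uncertain. Rpl24, a large subunit protein, had group means of 0.196 to 0.391 CPM in both lines and was not tested. The same limit applies to its level.

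**Figure D2:**
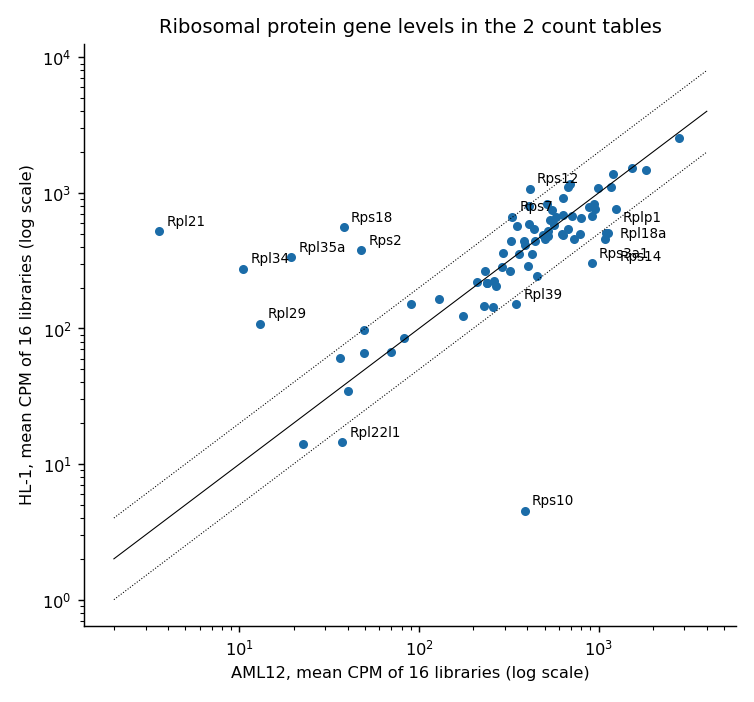
Mean CPM over the 16 libraries of each line, AML12 on the x axis and HL-1 on the y axis, both on log scales, for 79 ribosomal protein genes. The solid line marks equal values and the dotted lines 2-fold. Named genes lie outside 2-fold, Rpl21 farthest above the line and Rps10 farthest below it.

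The 3 paralogs that could be tested lay below their partners per kilobase in both lines. Rpl22l1 was at 67.4 ± 9.37 CPM per kb in AML12 and 26.4 ± 4.43 in HL-1 (SD, n = 16 libraries). Its partner Rpl22, a protein known to repress the paralog, was at 506 ± 58.9 and 456 ± 21.2 CPM per kb. Rps27l, a known p53 target, was at 165 ± 16.5 CPM per kb in AML12 and 170 ± 32.3 in HL-1, against 373 ± 38.5 and 476 ± 37.9 for Rps27. Rpl7l1, a relative of a yeast factor of large subunit assembly, was at 68.8 ± 11.6 and 116 ± 31.2 CPM per kb, against 1005 ± 71.3 and 954 ± 53.7 for Rpl7. Rpl3l, the striated muscle counterpart of Rpl3, had 11 counts in the AML12 17 h controls and 2 to 8 counts per group in HL-1. The testis paralogs Rpl10l and Rpl39l had 0 and 3 counts in all 16 HL-1 libraries.

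The comparison of DEX with control at 17 h asks how the treatment changed these genes in AML12 (all tests are edgeR's quasi-likelihood test with Benjamini-Hochberg adjustment over all genes tested, called at 0.05). Few moved, and in both directions. Of 79 tested, 5 rose and 5 fell, where 20.5% of all genes tested rose and 17.9% fell. The share called among the ribosomal protein genes thus lay below that background in each direction. Their median log2 change was -0.03, and that of all genes 0.00.

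Among the large subunit genes at 17 h, Rpl22 fell and Rpl8 rose. Rpl22 was at 235, 234, 243 and 223 CPM in the controls and at 214, 171, 213 and 212 in DEX. All 4 DEX libraries were below all controls, with a log2 change of -0.21 ± 0.05 (SE, adjusted p = 0.00296). Rpl8, near the peptidyl transferase centre, was at 1110 to 1143 CPM in the controls and at 1321, 1096, 1394 and 1320 in DEX. Only DEX replicate 2 was as low as the controls, and the log2 change was 0.19 ± 0.05 (adjusted p = 0.00633). Rpl7 fell by 0.17 ± 0.04 and Rpl10, beside the peptidyl transferase centre, by 0.13 ± 0.04 on the log2 scale. Rpl41 rose by 0.13 ± 0.05 and Rpl13 by 0.11 ± 0.04.

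Among the small subunit genes, Rps9 fell by 0.17 ± 0.05 on the log2 scale and Rps2 rose by 0.36 ± 0.12. Rps2 was at 47.0, 44.1, 41.5 and 54.3 CPM in the controls and at 50.3, 84.0, 54.1 and 51.2 in DEX. Only replicate 2 stood clear of the controls. Bile duct markers summed to 1760 to 1960 CPM in the controls and 2360 to 2579 in DEX at this time, and their part in these changes was not tested. Krt19, at 1700 CPM on average over the AML12 libraries, made up most of that sum. Of the paralogs, Rpl7l1 rose by 0.18 ± 0.06 (adjusted p = 0.0260), and Rpl22l1 fell by 0.29 ± 0.11 (adjusted p = 0.0482). Rps27l, at 80.9 to 90.5 CPM in the controls and 56.8 to 90.9 in DEX, was not called.

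Without DEX replicate 2, 8 genes rose and 4 fell at 17 h, and 8 of the 10 calls were kept. Of all genes tested, 20.1% then rose and 18.9% fell. Rps2 (adjusted p = 0.112) and Rpl22l1 (-0.14, adjusted p = 0.142) were no longer called, and Rpl6, Rpl9, Rpl14 and Rpl27 were called as higher. The median log2 change was then 0.03. Summed with its pseudogenes, Rps2 changed by 0.04 (adjusted p = 0.80). With only the 8 compared libraries in the fit, 3 genes were called (1 higher and 2 lower), and without control replicate 2 there were 5. Rpl22, Rpl7 and Rpl8 kept their calls under all 17 alternatives. Rpl10 lost its call in 2 of them and Rps9 in 1. Rpl13, Rpl41 and Rpl7l1 lost theirs in 7 each, with adjusted p of up to 0.145, 0.130 and 0.142, Rps2 in 6 and Rpl22l1 in 8. Of the 79 genes, 63 had their lowest of the 4 DEX values in replicate 2, and the median gene was there at 81.7% of the mean of the other 3. The same values over all genes are not given here.

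At 25 h, DEX differed from control in 2 ribosomal protein genes. Both were higher, where 6.79% of all genes tested rose and 4.96% fell. Rpl14, of the large subunit, was at 410, 416, 428 and 421 CPM in the controls and at 464, 475, 476 and 494 in DEX. The groups did not overlap, with a log2 change of 0.19 ± 0.05 (adjusted p = 0.00591). Rpl41 was at 923, 885, 861 and 879 CPM in the controls and at 970, 977, 925 and 1045 in DEX. Its log2 change was 0.14 ± 0.05 (adjusted p = 0.0404), and it was the 1 gene called at both times. Rpl41 lost the 25 h call when any library but DEX replicate 3 was left out, with adjusted p of 0.0587 to 0.234. The median over the genes was 0.05, and 64 of 79 had a change above 0. Of all 14114 genes tested, 7141 had a change above 0, with a median of 0.002.

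No gene's DEX effect was called as different between the times. By edgeR 0 of 79 were called and 2 (Rpl30 and Rps20) had an unadjusted p under 0.05, and DESeq2 and limma-voom called 0 as well. Of all genes tested, 7.91% had a higher effect at 25 h and 8.27% a lower one. The median difference was 0.09 on the log2 scale, and without DEX replicate 2 of 17 h it was 0.01, with Rpl7l1 called as lower (-0.20 ± 0.07, adjusted p = 0.0414). With no filter on low counts 7 genes were called, all higher.

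The times were then compared within each treatment of AML12. The time and the handling of the libraries collected at it cannot be told apart. In the controls, 10 genes rose from 17 h to 25 h and 1 fell, where 22.1% of all genes tested rose and 21.4% fell. The median was 0.07 and 67 of 79 had a change above 0. Of all 14114 genes tested, 6964 had a change above 0, with a median of -0.005. Rpl22 rose by 0.21 ± 0.05 on the log2 scale (adjusted p = 0.00273), from 223 to 243 CPM over the 17 h libraries to 263 to 280. Rps27 went from 119 to 126 CPM up to 138 to 145, a log2 change of 0.19 ± 0.05 (adjusted p = 0.00515). Rpl17, Rpl37 and Rpl12 each rose by 0.16, of which Rpl37 lost its call in 2 of 17 alternatives and Rpl12 in 4 (adjusted p of up to 0.0707 and 0.107). Rpl7l1 fell by 0.34 ± 0.06 (adjusted p = 0.000107), with 100.4, 96.1, 98.6 and 90.5 CPM at 17 h and 81.1, 73.7, 70.9 and 78.1 at 25 h, which do not overlap.

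Other signals moved over the same hours in control. Bile duct markers summed to 1760 to 1960 CPM at 17 h and 2237 to 2290 at 25 h, and hepatocyte markers to 4090 to 4247 and 5055 to 5205. Krt8 at 2629 and Krt18 at 1548 CPM, on average over the AML12 libraries, made up most of the hepatocyte sum. Mitochondrial genes held 1.95% to 2.09% of counts at 17 h and 1.65% to 1.79% at 25 h. None of these ranges overlap between the times, and their part in the changes was not tested.

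The count of control calls depended on the fit. With only the compared libraries it was 36 (32 higher and 4 lower), without the low-count filter 17, and without control replicate 1 of 25 h it was 6. Scaling by total counts gave 4 higher and 5 lower with a median of 0.03, so the balance of directions rested on the scaling.

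In the DEX libraries, 44 genes rose from 17 h to 25 h and 2 fell, where 27.8% of all genes tested rose and 28.2% fell. The 44 are 55.7% of those tested, with 22 of 42 large subunit genes, 2 of 3 stalk genes and 20 of 31 small subunit genes. The median log2 change was 0.15, against 0.00 over all genes. Rps21 was at 252, 143, 274 and 253 CPM at 17 h and at 296, 304, 289 and 294 at 25 h. It rose by 0.36 ± 0.12 (adjusted p = 0.0111), and replicate 2 of 17 h was by far its lowest value. Rpl22 rose by 0.32 ± 0.05, Rps29 by 0.32 ± 0.12, Rps19, a gene of Diamond-Blackfan anaemia, by 0.29 ± 0.11, and Rps27 by 0.29 ± 0.05.

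Rpl7l1 fell in DEX as well, by 0.46 ± 0.06 (adjusted p = 1.02e-06), from 112, 92.1, 120 and 112 CPM to 82.4, 80.9, 80.2 and 72.9. Its partner Rpl7 rose by 0.19 ± 0.04. Rps2 fell by 0.41 ± 0.12, but its sum with the pseudogene rows was higher at 25 h, at a log2 change of 0.14 that was not called (adjusted p = 0.205). All 10 genes that rose in the controls also rose in DEX, in comparisons that share no library. In DEX 55.7% of the genes rose, and the overlap over all genes tested is not given here. In the DEX libraries bile duct markers summed to 2360 to 2579 CPM at 17 h and 2129 to 2230 at 25 h, and hepatocyte markers to 3842 to 4215 and 4682 to 4991. Their part was not tested.

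Without DEX replicate 2 of 17 h, 36 genes rose and 5 fell in DEX, and 34 of the 46 calls were kept. Of all genes tested, 27.8% then rose and 29.1% fell, against 45.6% and 6.33% of the ribosomal protein genes. Their median was then 0.09. Rps21, Rps29 and Rps19 kept their calls at smaller sizes, with log2 changes of 0.18 ± 0.06, 0.15 ± 0.06 and 0.12 ± 0.05. Rpl22 was then at 0.24 ± 0.04 and Rps27 at 0.21 ± 0.04, while the stalk genes Rplp1 and Rplp2 lost theirs (adjusted p = 0.0593 and 0.132). Without DEX replicate 1 of 25 h, 28 rose and 2 fell, and with only the compared libraries 22 rose and 2 fell. For neither fit is the share over all genes given here, so these counts cannot be set against a background. Rps29 (adjusted p = 0.111), Rps19 (0.0545) and Rps4x (0.0533) were not called without DEX replicate 1 of 25 h, and Rps19 (0.0548) was not without replicate 4.

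**Figure D3:**
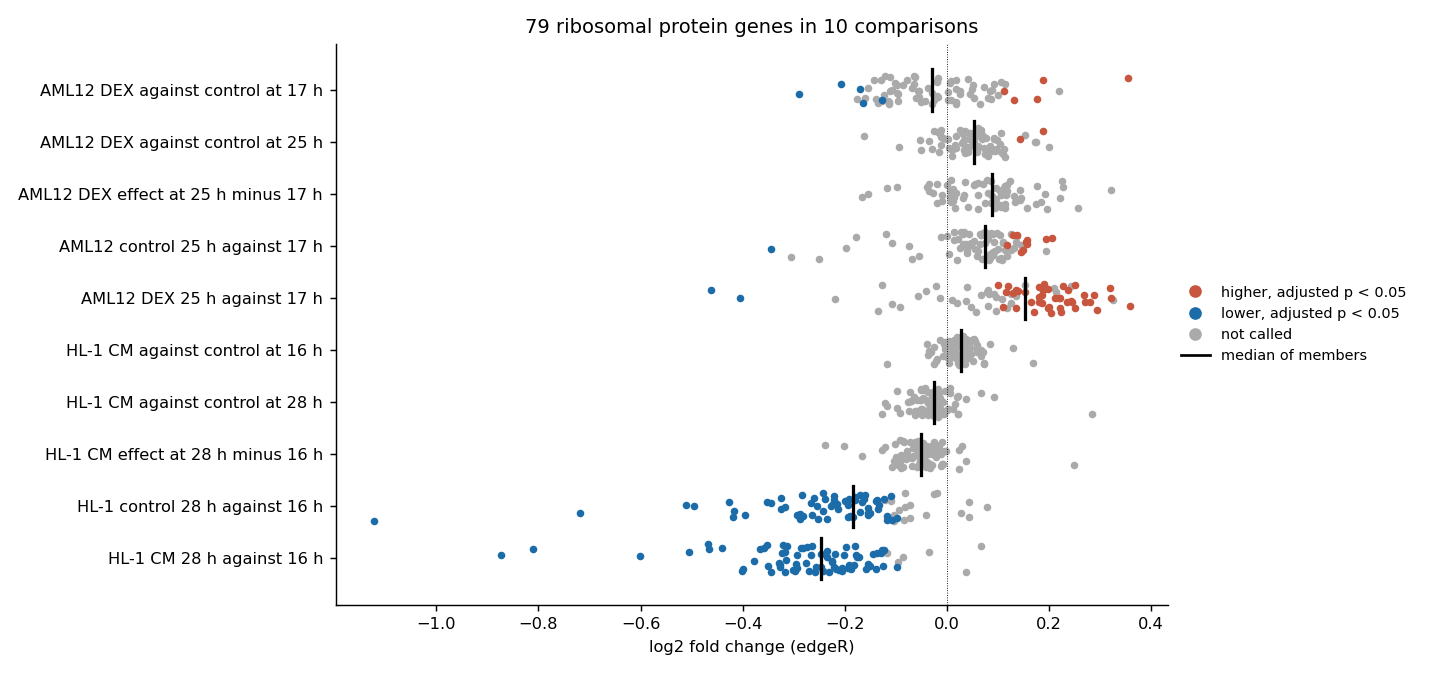
Log2 fold changes of 79 ribosomal protein genes (points) in each of the 10 comparisons, with red for higher and blue for lower at an edgeR adjusted p under 0.05, grey for not called and a black line for the median. The HL-1 time comparisons lie to the left with medians of -0.18 and -0.25, the AML12 DEX time comparison to the right at 0.15, and the HL-1 medium comparisons are all grey.

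For HL-1, the first question is whether medium from synchronized AML12 cells changed these genes. No change was called. At 16 h edgeR called 0 of 79, with 2 at an unadjusted p under 0.05, where 0.83% of all genes tested were higher and 1.2% lower. At 28 h it called 0, again with 2 at an unadjusted p under 0.05, where 0.706% and 1.22% of all genes were called. For the difference between the times it called 0, with 4 at an unadjusted p under 0.05, where 0.104% and 0.173% were called. DESeq2 and limma-voom also called 0 in these 3 comparisons.

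Median log2 changes with medium were 0.03 at 16 h and -0.03 at 28 h. The smallest p at 16 h was that of Rpl35, of the large subunit. It was at 74.3, 54.6, 65.0 and 63.2 CPM in control and at 75.5, 74.6, 71.0 and 68.3 in CM. Control replicate 1 lay among the CM libraries, with a log2 change of 0.17 ± 0.07 (adjusted p = 0.306), and without it Rpl35 was the 1 gene called. At 28 h the smallest p was that of Rps21, at -0.13 ± 0.05 (adjusted p = 0.322). A missed threshold does not show that the media act alike.

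With time, most ribosomal protein mRNAs of HL-1 fell. As in AML12, the time and the handling of the libraries collected at it cannot be told apart, in either medium. From 16 h to 28 h in control medium, 62 of 79 fell and 0 rose, where 31.3% of all genes tested fell and 31.5% rose. In CM, 73 of 79 fell and 0 rose, where 32.9% of all genes fell and 32.6% rose. The share of these genes that fell, 78.5% and 92.4%, lay far from the background in both media. Median log2 changes were -0.18 and -0.25, against 0.00 over all genes in each. The fall was modest in size: the middle 50% of the control changes ran from -0.26 to -0.12.

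Without control replicate 3 of 16 h, 60 genes fell in control with a median of -0.18, and 57 of the 62 calls were kept.

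Genes of every part of the ribosome fell. In control medium 30 of 42 large subunit genes, all 3 stalk genes, 26 of 31 small subunit genes and all 3 paralogs fell. In CM it was 37, 3, 30 and 3. The media have no library in common here. All 62 genes that fell in control also fell in CM, where they were 84.9% of those called. With 73 of 79 genes lower in CM, a large overlap follows from the totals alone. The overlap over all genes tested is not given here. The changes of single genes lay close together in the 2 media, with a Pearson correlation of 0.94 over the 79 genes, given as a description across genes, which are not independent and share each library's depth.

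**Figure D4:**
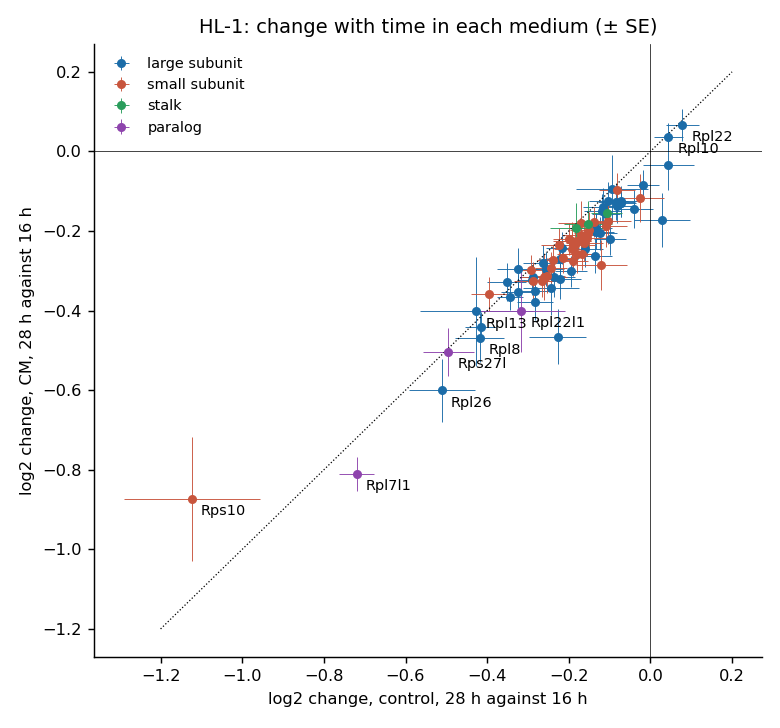
Log2 change from 16 h to 28 h in HL-1 for 79 ribosomal protein genes, control medium on the x axis and CM on the y axis, with bars of 1 SE and a dotted line of equal change. Nearly all genes lie below 0 on both axes, Rpl7l1 and Rps10 farthest, while Rpl22 is above 0 on both without being called.

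Summed levels of marker genes also moved over the same hours in HL-1. The summed level of the 6 fibroblast markers was 6965 to 8115 CPM at 16 h and 8541 to 9076 at 28 h in control, and 7061 to 7684 and 7882 to 8769 in CM, with Thy1 at 0.0143 CPM on average. The 4 bile duct markers summed to 105 to 127 CPM at 16 h and 295 to 320 at 28 h in control. The 11 cardiomyocyte markers summed to 885 to 932 CPM at 16 h and 1135 to 1190 at 28 h in control. On average over the HL-1 libraries, Vim at 6284 CPM made up most of the fibroblast sum. Des at 524 and Gja1 at 466 CPM made up most of the cardiomyocyte sum, so these sums do not follow whole marker lists. Their part in the result was not tested, and in bulk libraries fewer cells of a type and less RNA per cell cannot be told apart.

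Apart from that of Rps10, the largest called falls were those of 2 paralogs and a few large subunit genes. Rpl7l1 was at 185, 192, 183 and 184 CPM at 16 h and at 114, 114, 112 and 112 at 28 h in control. The groups lie far apart, with a log2 change of -0.72 ± 0.04 (adjusted p = 1.68e-13). In CM it went from 191 to 198 CPM down to 102 to 122, a log2 change of -0.81 ± 0.04. Its partner Rpl7 was not called in control, at 1082 to 1181 CPM and 1033 to 1106, and fell by 0.14 ± 0.04 in CM. In control Rpl7 was called as lower without replicate 2 of 16 h (adjusted p = 0.0209), without replicate 3 (0.0419) and without the low-count filter (0.0327).

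Rps27l was at 112, 88.8, 105 and 95.6 CPM at 16 h and at 71.7, 68.3, 72.0 and 72.8 at 28 h in control, with no overlap. It fell by 0.49 ± 0.06 in control and by 0.50 ± 0.06 in CM on the log2 scale. Rps27 changed by -0.10 in control, which was not called (adjusted p = 0.118), and by -0.18 ± 0.06 in CM (adjusted p = 0.0633 without CM replicate 1 of 16 h). Without control replicate 2 of 16 h it fell in control, at a log2 change of -0.18 (adjusted p = 0.00614), and it was also called there without the low-count filter (0.0299). Rpl22l1 fell by 0.32 ± 0.11 and 0.40 ± 0.10, and its call in control was lost without control replicate 4 of 16 h (adjusted p = 0.0508). Rpl22, at 196 to 228 CPM and 214 to 232, was not called in either medium. Differences between paralog and partner were not tested.

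Rpl26, a large subunit protein near the exit tunnel, was at 42.4, 35.7, 41.8 and 45.9 CPM at 16 h and at 32.7, 30.6, 26.2 and 27.0 at 28 h in control. All 28 h libraries were lower, with a log2 change of -0.51 ± 0.08 (adjusted p = 4.62e-06), and in CM it was -0.60 ± 0.08. Rpl8 fell by 0.47 ± 0.06 in CM, from 1479 to 1716 CPM to 1118 to 1242. Rpl13 was uneven at 16 h in control, at 489, 721, 935 and 768 CPM, and was at 534 to 547 at 28 h. Its fall of 0.43 ± 0.14 was not called without control replicate 3 of 16 h (log2 change -0.30, adjusted p = 0.0527).

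Rps10, another gene of Diamond-Blackfan anaemia, had the largest log2 change in control but rests on few reads. It was at 5.29, 5.38, 6.78 and 6.42 CPM at 16 h and at 3.08, 2.32, 2.00 and 3.59 at 28 h, with 387 and 180 counts in the groups. The log2 change was -1.12 ± 0.17 (adjusted p = 1.87e-06) in control and -0.87 ± 0.15 in CM. Summed with its pseudogene rows, which hold 69.8% of the family's counts in HL-1, it was -0.51 and -0.37, still called in both.

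**Figure D5:**
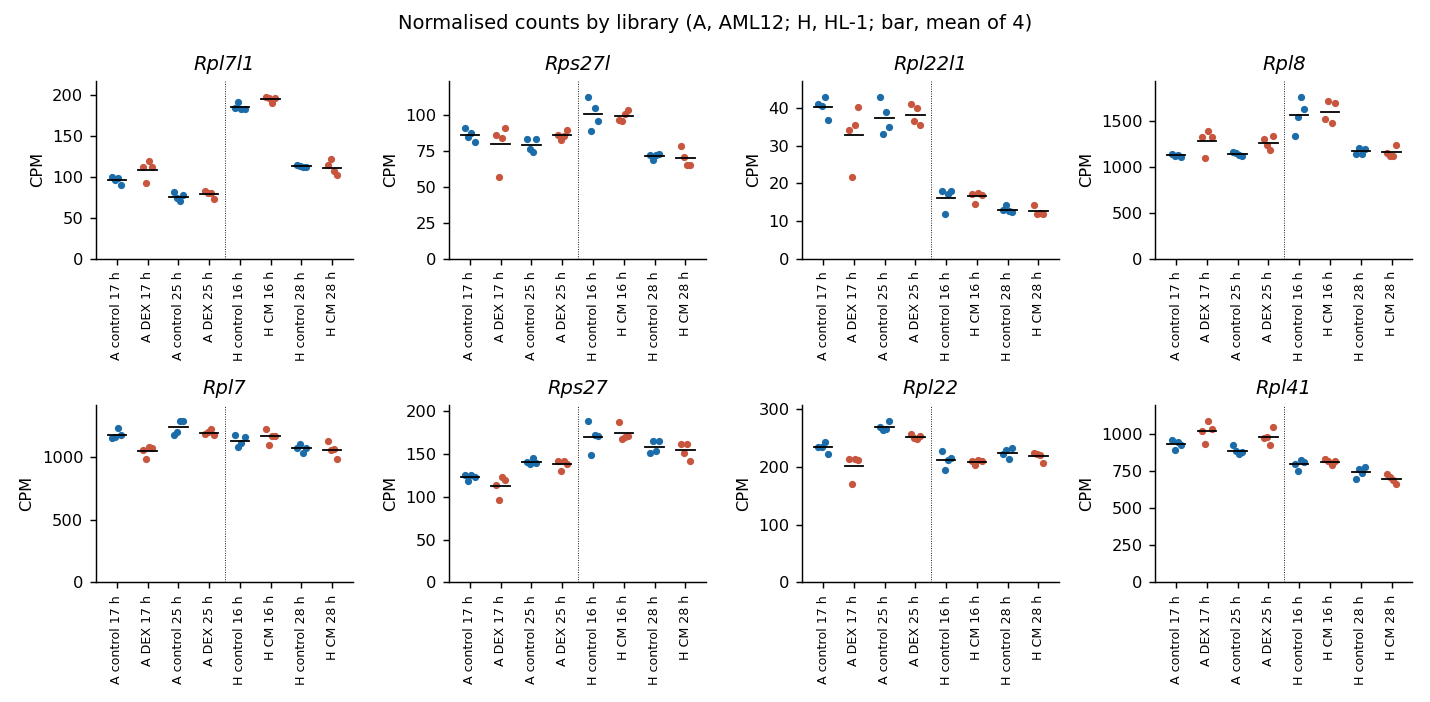
CPM in every library (points) with the mean of 4 (bar) for 3 paralogs above their partners, and for Rpl8 above Rpl41, in the 8 groups, with A for AML12 and H for HL-1. Rpl7l1 drops from 16 h to 28 h in HL-1, while its partner Rpl7 stays between 988 and 1228 CPM.

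In neither medium were Rpl10, Rpl13a, Rpl17, Rpl22, Rpl39 and Rps28 called. Rpl10 was at 769 to 820 CPM at 16 h and 810 to 849 at 28 h in control, and Rpl39, which lines the exit tunnel, at 133 to 174 and 154 to 159. A missed threshold does not show that they did not change. Without control replicate 1 of 16 h, Rpl22 was called as higher at 28 h in control (log2 change 0.10, adjusted p = 0.0296). In CM, Rpl17 and Rps28 were called as lower without the low-count filter, and Rps28 with the compared libraries alone.

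The changes can be set beside the start tract. Of the genes tested, 12 had a tract of at least 5 bases at the start of the window nearest their principal transcript and 47 had a window without one. In CM from 16 h to 28 h, the median log2 change was -0.24 in each set. In control it was -0.21 with a tract and -0.18 without. In AML12 DEX over time it was 0.13 and 0.14.

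Calls with time can be set side by side across the lines, which are separate libraries and over different hours, 17 h to 25 h in AML12 and 16 h to 28 h in HL-1. Of the genes tested in both, 39 rose in AML12 DEX and fell in HL-1 CM (32 without DEX replicate 2 of 17 h). Between the controls of the lines, 5 rose in AML12 and fell in HL-1. As 73 of 79 genes fell in HL-1 CM and 62 in HL-1 control, large overlaps follow from these totals alone. The overlap over all genes tested is not given here. Rpl7l1 alone fell in all 4 time comparisons. The difference between the lines was not tested.

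Other genes of the translation machinery were read from lists, and their shares called are to be read against those of all genes tested. With time these were 22.1% higher and 21.4% lower in AML12 control, and 27.8% and 28.2% in DEX. In HL-1 with time they were 31.5% and 31.3% in control, and 32.6% and 32.9% in CM. For DEX against control they were 20.5% and 17.9% at 17 h, and 6.79% and 4.96% at 25 h. Of 19 tested mRNAs known for the same 5′ tract, such as those of translation factors, 11 fell and 4 rose in HL-1 control with time, and 12 fell and 4 rose in CM. Npm1, the nucleolar chaperone nucleophosmin, fell by 0.72 ± 0.05 and 0.78 ± 0.05 on the log2 scale, and Eef1d, an exchange factor of elongation factor 1, by 0.62 and 0.65. In AML12, 5 of the 19 rose and 0 fell from 17 h to 25 h in control, and 5 rose and 1 fell in DEX (7 and 2 without DEX replicate 2 of 17 h). The 26.3% that rose is near the share of all genes in each. Hnrnpa1 rose by 0.32 ± 0.05 in control and by 0.53 ± 0.05 in DEX.

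Noncoding hosts of small nucleolar RNAs, which carry guides for rRNA modification in their introns, made a list of 8 tested genes. Of these, 7 rose in AML12 control and 5 in DEX from 17 h to 25 h and 0 fell, while in HL-1 5 fell in control and 7 in CM and 0 rose. Without DEX replicate 2 of 17 h, 4 rose and 1 fell in AML12 DEX. Zfas1 rose by 1.02 ± 0.08 in AML12 DEX, from 55.6 to 113 CPM, and Snhg4 fell by 1.16 ± 0.11 in HL-1 control. For DEX against control at 17 h, 4 fell and 1 rose, among them Zfas1 at -0.73 ± 0.09.

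Chaperones and assembly partners of ribosomal proteins fell in HL-1 with time in 11 of 14 cases in control and 12 of 14 in CM, with 0 rising. Grwd1, an escort of a newly made ribosomal protein, had log2 changes of -1.43 ± 0.08 and -1.53 ± 0.08. In AML12 from 17 h to 25 h, 4 rose and 3 fell in control, and 2 rose and 7 fell in DEX. The control shares, 28.6% and 21.4%, are near those of all genes. Bop1, a large subunit assembly factor, rose in both, by 0.38 ± 0.05 and 0.54 ± 0.05. For DEX against control, 5 (35.7%) rose and 2 (14.3%) fell at 17 h, and 0 rose and 3 (21.4%) fell at 25 h.

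Genes of mTORC1 and MYC control moved in both directions. In HL-1 with time, 5 rose and 10 fell of 20 in control, and 5 rose and 9 fell in CM. Mxi1, an antagonist of MYC, rose by 1.78 ± 0.05 in control and 1.73 ± 0.05 in CM, and Ddit4, an inhibitor of mTORC1, by 1.17 ± 0.09 and 1.15 ± 0.09. In AML12 from 17 h to 25 h, 7 rose and 6 fell of 21 in control, and 5 rose and 12 fell in DEX. The DEX counts were the same without DEX replicate 2 of 17 h. Ddit4 also rose with time in AML12, by 0.82 ± 0.07 in control and 0.80 ± 0.07 in DEX. For DEX against control at 17 h, 10 of 21 (47.6%) rose and 1 (4.76%) fell. Eif4ebp1, a translation repressor under mTORC1, was at 0.59 ± 0.06. At 25 h 1 (4.76%) rose and 3 (14.3%) fell.

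Mitochondrial ribosomal proteins, a separate family of 79 tested genes, had more falls than rises with time in each comparison. In HL-1, 57 fell and 3 rose in control, and 63 fell and 2 rose in CM. In AML12, 31 fell, 10 rose and 38 were not called in control, and 39 fell, 7 rose and 33 were not called in DEX. Mrpl12 fell by 0.90 ± 0.07 and 1.03 ± 0.07 in HL-1. For DEX against control at 17 h, 16 rose and 3 fell, and at 25 h 1 rose and 2 fell. The 20.3% that rose at 17 h is near the 20.5% of all genes, and without DEX replicate 2 it was 26 that rose (32.9%) and 2 that fell. Of 4 ribosomal protein genes whose symbols fall outside the rule, Rack1 fell by 0.21 ± 0.03 and 0.27 ± 0.03 with time in HL-1.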

How the data were processed

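RNA was taken up in TRIzol and libraries were made with the NEBNext Ultra II RNA kit, per the labels' protocols. The submitters' processing notes name FastQC 0.11.8, STAR and the builds mm10 and GRCm38. Which counter, strand setting and annotation were used is not given in the sources used here. The authors deposited raw counts per gene, 1 table per line, and every per-sample column was mapped to a labelled library. Genes were joined by Ensembl ID without version. Each line was fitted apart with edgeR 4.0.16 (R 4.3.3): filterByExpr, TMM scaling and the quasi-likelihood test over 4 groups, with Benjamini-Hochberg adjustment over all 14114 (AML12) or 14450 (HL-1) genes tested and a threshold of 0.05. CPM are counts divided by the TMM-scaled library size. Per kilobase levels use the shortest transcript of the best APPRIS rank in GENCODE M21 (GRCm38). Alternatives were DESeq2 1.42.0, limma 3.58.1 (voom), other scalings, no filter, a replicate block, the compared libraries alone, sums with pseudogenes and leaving out each library. The fit was tested on simulated data with 200 changed genes per fold size. For the comparisons of treatment or medium, it called 29.5% to 33.5% of genes changed by 0.25 on the log2 scale. At 0.5 it called 66.5% to 73.5%, so small changes can be missed.

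The members and the 6 gene lists were chosen with earlier results of these data known. Named per comparison were the 5 largest called rises and falls with at least 1 CPM, genes called at both times, the paralogs with their partners, and up to 3 genes of each list with the smallest p. Rpl35, Rps21 in HL-1, Rpl30, Rps20, Rpl24, Rplp1 and Rplp2 were named after their values were seen. Start sequences are from RefSeq on GRCm38.p6.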

Additional observations from a re-analysis of the deposited data

Results flagged for a closer look

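In 16 of 192 sets of 4 libraries (8.33%), 1 library lay far from the other 3 in CPM of a named gene. Chance alone does this in about 1 of 20 sets that are independent and not chosen by their values. Here genes share libraries, and some were named for changes in comparisons that hold an outlying library. The rates can therefore not be compared. Of the 16, 6 were AML12 DEX replicate 2 of 17 h: Rpl14 at 388 CPM (others 455.5 to 461), Rpl22 at 171 (212 to 214), Rpl3 at 701 (849 to 876), Rps19 at 256 (446 to 463) and Rps21 at 143 (252 to 274) were low there, and Rps2 at 84.0 (50.3 to 54.1) was high. In the other AML12 groups, Rps29 was high in replicate 1 of both 25 h groups, at 304.9 CPM in control (259.5 to 263) and 329.7 in DEX (265 to 273). Rps2 was at 41.3 CPM in control replicate 2 of 25 h (38.5 to 38.8).

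In HL-1, CM replicate 2 of 16 h was low for Rpl17 at 490.4 CPM (512 to 516.5), Rpl22l1 at 14.6 (16.9 to 17.3) and Rpl39 at 137 (153 to 155). Rpl22l1 was also low in control replicate 2 of 16 h, at 11.8 CPM (17.2 to 18.0), and high in CM replicate 1 of 28 h, at 14.2 (11.9 to 12.0). Rpl13 was at 742 CPM in CM replicate 4 of 28 h (509 to 533), and Rps9 at 686 in CM replicate 3 of 16 h (735 to 743).

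The DEX effect in AML12 was called as different between the times, by the interaction term in edgeR, for 12 named genes of the lists. These were picked by smallest p in this comparison, at most 3 per list, so their number is not a rate. In full, 1 rose and 8 fell of 21 mTORC1 and MYC genes, and 3 rose and 4 fell of 79 mitochondrial ribosomal proteins. Of all genes tested, 7.91% had a higher effect at 25 h and 8.27% a lower one. The difference, 25 h minus 17 h on the log2 scale, was 0.20 for Hnrnpa1, 0.38 for Zfas1 and 0.40 for Mrpl33. Without DEX replicate 2 of 17 h, Hnrnpa1 was at 0.17 and no longer called (adjusted p = 0.0560), while the other 11 kept their calls. It was -0.40 for Snhg4, -0.58 for Rrs1, -0.40 for Grwd1 and -0.28 for Bccip. For Eif4ebp1 it was -0.65, for Sesn2 -0.51 and for Max -0.35. Among mitochondrial ribosomal proteins it was -0.44 for Mrpl40 and -0.26 for Mrpl10.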

How the results depend on the processing

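The falls with time in HL-1 kept their direction: across scalings, tools and filters 62 to 68 genes fell in control and 71 to 75 in CM, and 56 to 70 and 69 to 73 when 1 library was left out, where medians ran from -0.239 to -0.173 and from -0.272 to -0.228. For AML12 DEX against control, calls at 17 h numbered 20 without the low-count filter (4 higher, 16 lower), 3 with the compared libraries alone and 5 to 12 with 1 library left out. At 25 h they numbered 1 with RLE size factors, 4 without the filter, 4 by DESeq2, 5 with the compared libraries alone and 1 to 2 with 1 library left out, where the median ran from 0.0184 to 0.0573. For the difference between these times there were 7 calls without the filter and 0 to 1 with 1 library left out, with medians of 0.0119 to 0.126. With time in AML12 control, calls numbered 17 without the filter, 36 with the compared libraries alone and 6 to 12 with 1 library left out, and total-count scaling gave a median of 0.0274. In AML12 DEX they numbered 24 with the compared libraries alone and 30 to 53 with 1 library left out, and Rps2 summed with its pseudogenes turned to 0.14. For HL-1 medium, calls at 16 h were 0 to 1 with 1 library left out, and the median of the difference between times ran from -0.0701 to 0.00416. The cause of these shifts was not tested. With pseudogenes and other ribosomal protein rows added, shares of counts were 4.83%, 4.68%, 4.90% and 5.10% in AML12 control and DEX at 17 h, then at 25 h, and 4.69%, 4.78%, 4.11% and 4.08% in HL-1 control and CM at 16 h, then at 28 h. Same-numbered replicates did not deviate together (correlations of -0.125 to 0.135 in AML12 and -0.187 to 0.186 in HL-1), and a replicate block gave 11 calls for DEX at 17 h, 50 for AML12 DEX with time, 62 and 72 for HL-1 with time, and the same counts elsewhere. Of 47 called results for named genes, 30 kept their call under every alternative. The low counts of Rps10 in HL-1 limit its precision.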
